A study of Mus musculus with 32 samples.

Results

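Trp53, the mouse gene for the tumour suppressor p53, and 9 genes that p53 is known to switch on were followed in RNA of E0771, a breast cancer cell line that arose in a C57BL/6 mouse. The 10 genes, chosen by symbol, were Trp53, Mdm2, Cdkn1a, Ccng1, Zmat3, Bax, Bbc3, Phlda3, Sesn2 and Gdf15. All 10 were present in each of the 4 deposited tables, which hold 22609 genes for cultured cells, 22609 for tumours in Rag1-/- hosts and 25277 each for day 4 and day 6 tumours. In every table all 10 passed the filter on low values, a mean of 10 or more normalized read counts.

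The study, on DDR1 in mammary tumour growth, deposited 32 libraries in 8 groups. DDR1, discoidin domain receptor 1, is a collagen receptor at the cell surface with tyrosine kinase activity. In culture, 2 libraries of E0771 DDR1 KO derivatives, named 3-6 and 3-7, stood against 3 of E0771 DDR1 WT cells, namely parental cells (E0771-P), EV and Ctrl, and the labels do not say whether a derivative is 1 clone. In Rag1-/- mice, which lack mature T and B cells, 5 knockout tumours stood against 5 wild-type tumours, with no day given. In C57BL/6 mice at day 4, 5 knockout tumours stood against 4 wild-type tumours, and the design text also speaks of tumours passed on from the first host to the second. In C57BL/6 mice at day 6, 4 tumours given an antibody named for the human DDR1 extracellular domain (ECD) stood against 4 given IgG, and these labels give no Ddr1 genotype. No group label gives a promoter, Cre driver, animal age or pooling, and none ties replicates to cultures or animals of their own. The p-values therefore speak only of the spread between these libraries, which may be technical.

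Depth ran between 29270919 and 37425032 reads for the cultured cells. Tumours of Rag1-/- hosts had 18967300 to 25516204 reads, day 4 tumours 20148955 to 28600639 and day 6 tumours 20220028 to 39732635. Ddr1, on chromosome 17, had 914 and 665 normalized counts in knockout cells, against 6120, 5854 and 7187 in wild-type cells. It averaged 768 ± 76.6 in knockout and 3873 ± 164 in wild-type tumours of Rag1-/- hosts (SD, n = 5 each), and 774 ± 231 in 5 knockout against 3563 ± 547 in 4 wild-type tumours at day 4. At day 6 it averaged 657 ± 133 with antibody and 554 ± 89.0 with IgG (SD, n = 4 each), which overlapped. In reads scaled to a common library total (RPM), both day 6 groups, at 22.1 and 18.6, were closer to the day 4 knockout mean of 33.8 than to the day 4 wild-type mean of 150.

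p53 is a transcription factor that is normally kept scarce by Mdm2, a ubiquitin ligase whose own gene p53 activates, so the pair forms a feedback loop. When DNA damage or another stress stabilises the p53 protein, it binds a pair of half-sites near its targets and raises genes that halt the cell cycle, such as Cdkn1a, or that start cell death, such as Bax and Bbc3. The pathway is controlled largely at the level of the protein, which was not measured here, and several of these genes also answer to other stress pathways.

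Promoter windows are shown for the 4 members that changed in knockout tumours of Rag1-/- hosts and had a window with a p53 half-site match. Of these, Cdkn1a, Mdm2 and Ccng1 rose while Bax fell. Sesn2 and Gdf15 also fell but had no match. Each window runs 5′ to 3′ over 250 bases before and 50 bases after an annotated start site (RefSeq, GRCm38.p6), and capitals mark an exact match to the p53 half-site consensus, searched on both strands, which are equivalent for this motif.
Cdkn1a, chr17:29090729-29091028, plus strand: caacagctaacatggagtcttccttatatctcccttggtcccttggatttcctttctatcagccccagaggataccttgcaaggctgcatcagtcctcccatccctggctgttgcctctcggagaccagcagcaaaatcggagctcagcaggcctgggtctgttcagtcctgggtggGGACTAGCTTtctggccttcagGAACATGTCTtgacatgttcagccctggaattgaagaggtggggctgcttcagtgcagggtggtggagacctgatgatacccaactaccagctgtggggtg
Mdm2, chr10:117710709-117711008, minus strand: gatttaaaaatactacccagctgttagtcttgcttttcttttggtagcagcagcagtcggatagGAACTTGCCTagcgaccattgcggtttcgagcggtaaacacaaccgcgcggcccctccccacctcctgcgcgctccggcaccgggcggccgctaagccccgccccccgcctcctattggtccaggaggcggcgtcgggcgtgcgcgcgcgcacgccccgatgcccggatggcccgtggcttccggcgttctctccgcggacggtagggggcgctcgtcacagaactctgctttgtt
Ccng1, chr11:40755237-40755536, minus strand: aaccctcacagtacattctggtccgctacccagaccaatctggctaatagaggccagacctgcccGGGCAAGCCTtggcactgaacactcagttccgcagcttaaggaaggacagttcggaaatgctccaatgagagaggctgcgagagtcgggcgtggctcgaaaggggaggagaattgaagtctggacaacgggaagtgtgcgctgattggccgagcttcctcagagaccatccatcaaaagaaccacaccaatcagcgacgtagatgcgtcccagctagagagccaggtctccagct
Bax, chr7:45466849-45467148, minus strand: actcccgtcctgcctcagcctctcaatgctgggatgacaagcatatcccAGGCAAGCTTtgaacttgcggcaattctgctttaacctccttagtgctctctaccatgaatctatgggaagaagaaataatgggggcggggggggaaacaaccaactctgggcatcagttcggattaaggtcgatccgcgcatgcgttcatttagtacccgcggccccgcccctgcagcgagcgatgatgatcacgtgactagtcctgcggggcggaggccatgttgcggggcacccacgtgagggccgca

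The Cdkn1a window held 2 half-sites, beginning 73 and 51 bases before the start site (GGACTAGCTT and GAACATGTCT). The Mdm2 window held 1 at 186 bases (GAACTTGCCT), the Ccng1 window 1 at 185 bases (GGGCAAGCCT) and the Bax window 1 at 201 bases (AGGCAAGCTT). Trp53 also had 1, at 75 bases (GGACTTGCCC). No exact match stood in the single windows of Phlda3 and Sesn2, the 2 of Gdf15, the 3 of Bbc3 or the second of Cdkn1a, and the table had entries for 9 of the 10 members, all but Zmat3. The same consensus occurred in 2745 of 32851 promoter windows (8.36%), and in 5 of the 13 windows of these 9 genes, which is a description of letters and not of binding.

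Of the 4 comparisons, knockout against wild-type tumours in Rag1-/- hosts alone gave changes of these genes that passed the test. Cdkn1a, Mdm2, Ccng1 and Zmat3 rose, Bax, Sesn2 and Gdf15 fell, and Trp53, Bbc3 and Phlda3 did not pass. A gene was called changed at a Benjamini-Hochberg adjusted p under 0.05 in limma, on log2(normalized count + 1), with p adjusted over all genes of the table. The 4 rises of 10 stood against 11.3% of all genes tested, and the 3 falls against 11.4%, with 22.7% called in either direction. Before adjustment p was under 0.05 for 8 members and for 36.1% of genes. The 3 higher and 1 lower member whose groups did not overlap stood against 7.85% and 7.14% of genes. The median log2 change over the 10 was 0.11, with that over all genes close to 0. The 7 that passed moved both ways and modestly, to between 0.764 and 1.32 of the wild-type mean.

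In culture no member passed, against 0.327% of all genes called (39 of 11911). The limma p before adjustment was under 0.05 for 5 members, and for 18.8% of genes. Knockout and wild-type ranges were apart for 5 members, 3 higher and 2 lower, but with 2 libraries against 3 that held for 36.2% of all genes (18.5% higher and 17.7% lower). At day 4 no member passed either, against 0.0354% of genes (5 of 14105), while 4 had an unadjusted p under 0.05, against 15% of genes. Mdm2, Sesn2 and Gdf15 lay lower in all 5 knockout tumours than in all 4 wild-type ones, against 3.85% of genes lower without overlap and 5.76% in either direction. At day 6 limma called 0 of 14155 genes (0%), with 1218 at an unadjusted p under 0.05 (8.6%), 4 members among them. Bbc3 and Gdf15 were higher in every antibody tumour than in every IgG tumour, against 2.03% of genes higher without overlap and 3.9% in either direction. The authors' deposited table, with adjusted p-values of its own, lists 1 member under 0.05 in culture, 4 in Rag1-/- hosts, 2 at day 4 and 1 at day 6. Over all genes that table has 613 of 22609 under 0.05 in culture, 1985 of 22609 in Rag1-/- hosts, 724 of 25277 at day 4 and 155 of 25277 at day 6.

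**Figure D1:**
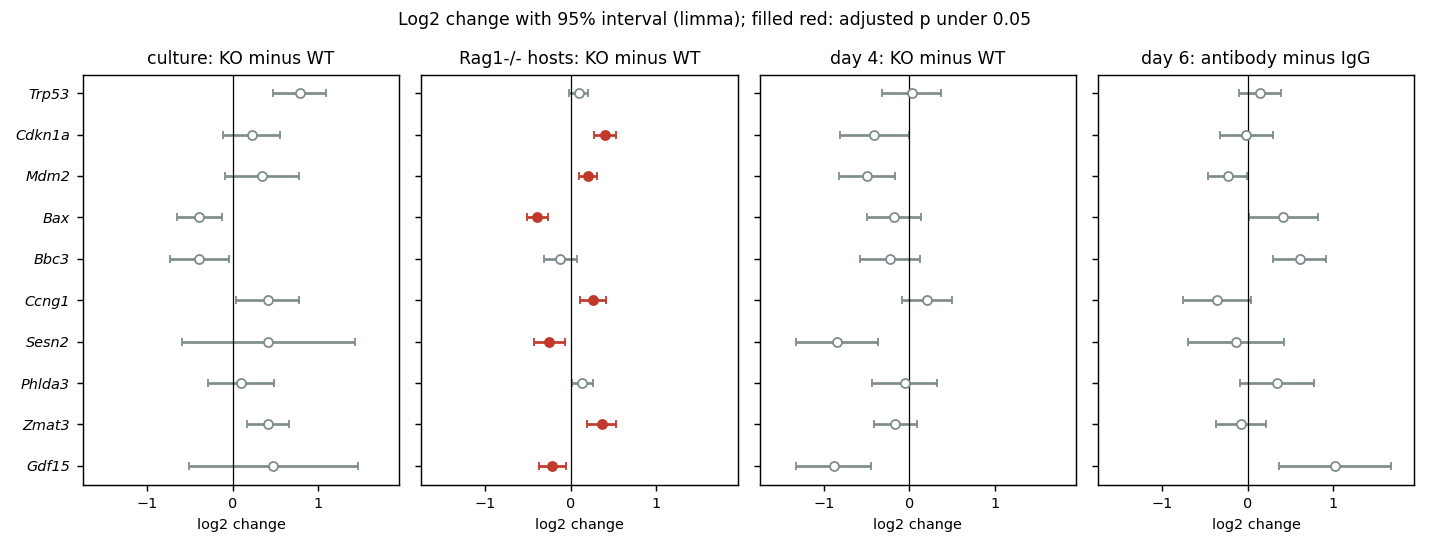
Log2 change of each member (horizontal axis) in the 4 comparisons (panels), knockout minus wild type or antibody minus IgG, as the limma estimate with its 95% interval. Filled red points passed an adjusted p of 0.05, which holds for 7 members in Rag1-/- hosts and for none in the other 3 panels.

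Trp53 itself (chr11:69580359-69591873, plus strand; GRCm38 with GENCODE M21 for all gene positions here) encodes p53, and all 10 members are annotated as protein-coding genes. In culture it had 6158 and 6128 normalized counts in knockout cells, against 4135, 3088 and 3529 in wild-type cells. Both knockout libraries stood above all 3 wild-type ones, a 1.71-fold ratio of means and a log2 change of 0.79 ± 0.13 (SE, as for all log2 changes here), with a limma adjusted p of 0.0564. That narrowly missed the threshold, while the authors' deposited table gives 1.61e-05. Without the parental library limma called it, with an adjusted p of 0.00600. Knockout tumours of Rag1-/- hosts had 3183, 2921, 3144, 3201 and 2977, against 2920, 3149, 2774, 3045 and 2627 in wild-type tumours. These ranges overlapped, and the log2 change was 0.09 with a 95% interval of -0.03 to 0.20. The Rag1-/- minus culture difference in the knockout effect was -0.70 ± 0.14, with a limma adjusted p of 0.0713. At day 4 the knockout tumours spread more widely (3017, 4520, 4113, 2712 and 4082) than the wild-type ones (3414, 3492, 3858 and 3463). At day 6 Trp53 had 8185, 8070, 6682 and 6714 with antibody, against 6599, 6909, 6781 and 6432 with IgG, a log2 change of 0.14 that did not pass (limma adjusted p = 0.584). Within 5 Mb of Trp53 in culture, 35 of 113 tested genes had a log2 change below 0, and the median was 0.22. In Rag1-/- hosts 30 of 117 such neighbours rose and 4 fell (median 0.08), against 11.3% and 11.4% of all genes. Whether the culture difference of Trp53 is more than that of its neighbourhood was not tested.

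Mdm2 (chr10:117688875-117710758, minus strand), the ubiquitin ligase that marks p53 for destruction, differed in direction between the hosts. It had 2476, 2432, 2178, 2452 and 2337 normalized counts in knockout tumours of Rag1-/- hosts, against 2076, 2130, 1967, 2043 and 2114 in wild-type tumours. Every knockout tumour lay above every wild-type one, and Mdm2 rose by a log2 change of 0.20 ± 0.05 (limma adjusted p = 0.00821, though 0.0572 in the authors' deposited table). At day 4 it had 2372, 1656, 2079, 2344 and 2590 in knockout tumours, against 2724, 3180, 2793 and 3721 in wild-type tumours. Here every knockout tumour lay below every wild-type one, a log2 change of -0.50 ± 0.15 that did not pass (limma adjusted p = 0.195). The day 4 minus Rag1-/- difference was tested directly and passed, at -0.70 ± 0.15 (adjusted p = 0.0310 from the limma estimates). Cultured knockout cells had 3849 and 3816, against 3917, 2732 and 2576 in wild-type cells, where the parental library stood with the knockout ones. At day 6 antibody tumours had 3359, 3138, 3851 and 3284, against 3838, 3895, 4216 and 4016 with IgG, which overlapped narrowly at a log2 change of -0.23 (limma adjusted p = 0.517). Of 40 tested genes within 5 Mb of Mdm2, 8 rose and 1 fell in Rag1-/- hosts (median 0.09), against 11.3% and 11.4% of all genes. At day 4, 29 of 44 such neighbours lay below 0 (median -0.10). Whether the changes of Mdm2 are more than those of its neighbourhood was not tested.

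Cdkn1a (chr17:29090976-29100727, plus strand) encodes p21, an inhibitor of cyclin-dependent kinases and the best known arrest gene of p53. Knockout tumours of Rag1-/- hosts had 3585, 3627, 3455, 3007 and 3213 normalized counts, against 2473, 2772, 2665, 2539 and 2386 in wild-type tumours. The ranges were apart, and Cdkn1a rose 1.32-fold in means, a log2 change of 0.39 ± 0.06 (limma adjusted p = 0.000557). At day 4 knockout tumours had 7175, 6014, 6682, 8407 and 11404, against 8583, 10046, 11766 and 10956 in wild-type tumours. All but knockout tumour 5 lay below the wild-type range, and the log2 change of -0.41 ± 0.18 did not pass (limma adjusted p = 0.328). The difference between the hosts did, at -0.80 ± 0.19 (adjusted p = 0.0448 from the limma estimates). In culture knockout cells had 14021 and 13741, against 14432, 10807 and 10764 in wild-type cells, the parental library again being the high one. At day 6 antibody tumours had 4736, 5536, 5281 and 5710, against 4368, 5928, 6356 and 5043 with IgG, within the IgG range throughout. An antisense gene, AC167363.2, overlaps Cdkn1a, and reads of the pair cannot be told apart if counting ignored strand.

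Ccng1 (chr11:40748552-40755311, minus strand) encodes cyclin G1, an early and strong p53 target that takes part in the Mdm2 loop. In Rag1-/- hosts it had 1706, 1661, 2112, 1855 and 1670 normalized counts in knockout tumours, against 1430, 1424, 1445, 1501 and 1710 in wild-type tumours. Wild-type tumour 5 alone reached into the knockout range, and Ccng1 rose by a log2 change of 0.26 ± 0.07 (limma adjusted p = 0.0208). The call was lost without knockout tumour 4, wild-type tumour 1 or wild-type tumour 2, with limma adjusted p between 0.0514 and 0.0559. In culture it had 2479 and 2493 in knockout cells, against 1533, 1950 and 2181 in wild-type cells, apart at a log2 change of 0.41 ± 0.16 (limma adjusted p = 0.224). At day 4 its log2 change was 0.20 ± 0.13 with overlapping ranges, of 1325 to 1865 in knockout and 1197 to 1645 in wild-type tumours. At day 6 antibody tumours had 2744, 2649, 3454 and 2669, against 3844, 5007, 2856 and 3321 with IgG, and antibody tumour 3 stood apart from the other 3. Within 5 Mb of Ccng1 in culture, 1 of 12 tested genes had a log2 change below 0, and the median was 0.19. In Rag1-/- hosts 3 of 13 such neighbours rose and 0 fell (median 0.15), against 11.3% and 11.4% of all genes. Whether the rise of Ccng1 is more than that of its neighbourhood was not tested.

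Zmat3 (chr3:32334792-32366014, minus strand) encodes an RNA-binding zinc finger protein known as a p53 target with growth-restraining activity. It had 1316, 1111, 1406, 1152 and 1104 normalized counts in knockout tumours of Rag1-/- hosts, against 1046, 905, 1005, 847 and 932 in wild-type tumours. The groups did not overlap, and Zmat3 rose by 0.36 ± 0.08 on the log2 scale (limma adjusted p = 0.00578). Cultured knockout cells had 3343 and 3274, against 2662, 2527 and 2279 in wild-type cells. That gap was of like size, 0.41 ± 0.10, but did not pass in culture (limma adjusted p = 0.101), and the Rag1-/- minus culture difference was -0.05 with a 95% interval of -0.33 to 0.22. At day 4 knockout tumours had 1131, 918, 1172, 1003 and 1123, against 1191, 1329, 1049 and 1216 in wild-type tumours. These overlapped at a log2 change of -0.16 ± 0.11, yet the day 4 minus Rag1-/- difference passed at -0.52 ± 0.14 (adjusted p = 0.0432 from the limma estimates). At day 6 the antibody range of 1474 to 2007 covered the IgG range of 1576 to 1941.

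The host differences of Mdm2, Cdkn1a and Zmat3 were 3 falls of 10 members, against 2.65% of all genes called lower and 2.99% called in either direction (336 of 11247). Before adjustment p was under 0.05 for 5 members and for 18.7% of genes. Each of the 3 calls was close to the threshold. Mdm2 lost it without day 4 knockout tumours 3 or 4 or wild-type tumours 2, 3 or 4, with adjusted p between 0.0550 and 0.111 from the limma estimates. Cdkn1a lost it without day 4 knockout tumours 1, 2, 3 or 4, day 4 wild-type tumours 2, 3 or 4, Rag1-/- knockout tumours 1 or 2, or Rag1-/- wild-type tumour 5 (0.0509 to 0.142). Zmat3 lost it without day 4 knockout tumours 1, 2, 4 or 5, day 4 wild-type tumours 1, 2 or 4, Rag1-/- knockout tumours 1 or 3, or Rag1-/- wild-type tumours 2, 4 or 5 (0.0529 to 0.1499). With any 1 library left out, the difference stayed between -0.94 and -0.71 for Cdkn1a, -0.76 and -0.60 for Mdm2 and -0.58 and -0.47 for Zmat3. Host and table differ together here, and the labels give no day for the Rag1-/- tumours, so host, table and any difference in day cannot be told apart. The Rag1-/- minus culture difference passed for 0 of 10 members in limma, with 1 at an unadjusted p under 0.05, against 0.731% of genes called and 15% at that p.

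**Figure D2:**
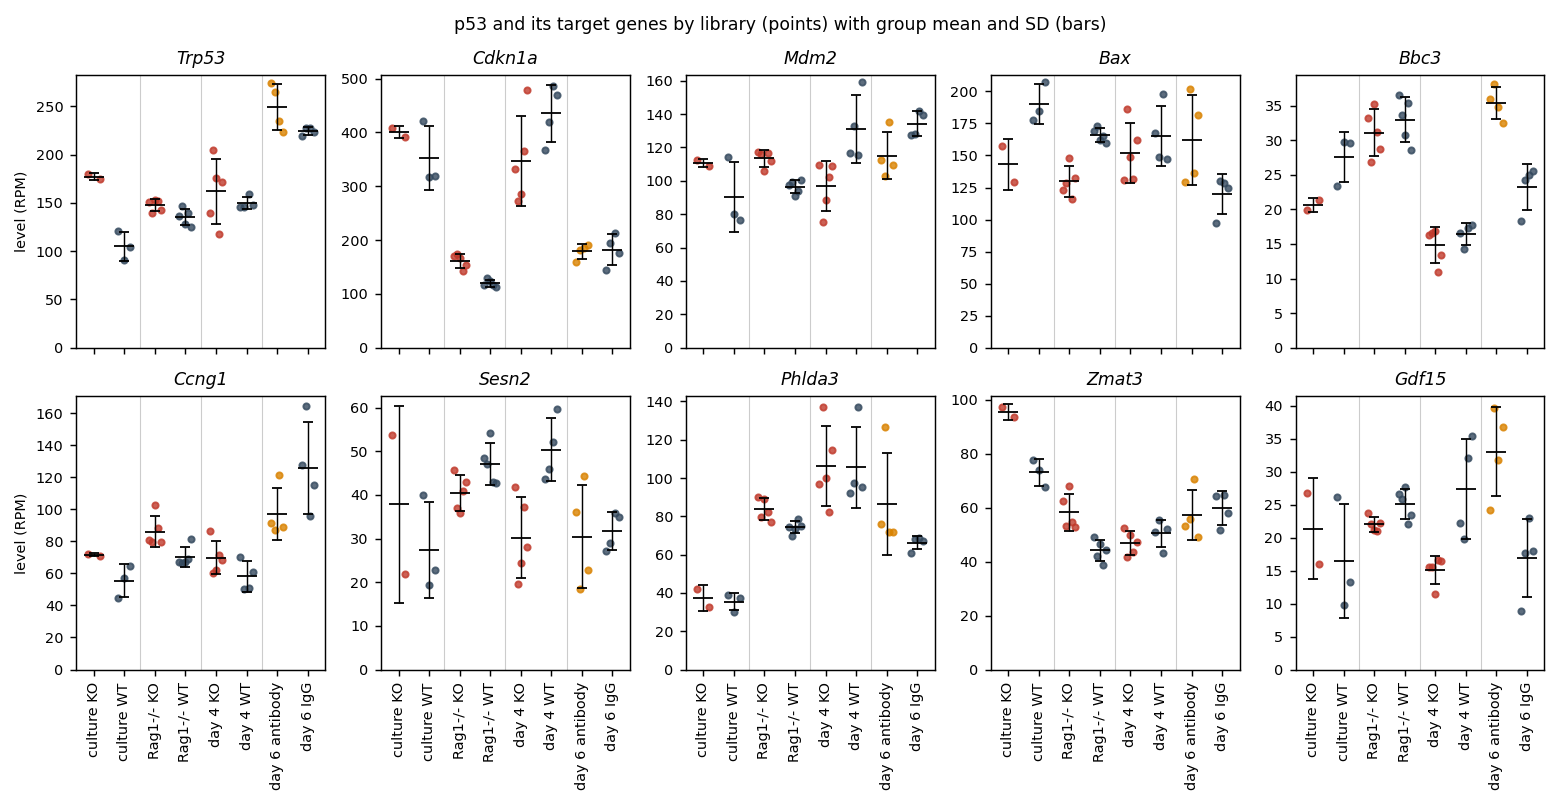
Level in RPM (vertical axis, from 0) of each member (panels) in all 32 libraries (points), with group mean and SD (bars); knockout is red, antibody orange, wild type and IgG dark blue. In the Rag1-/- columns the knockout points of Cdkn1a, Mdm2 and Zmat3 lie above all wild-type points, and at day 4 those of Mdm2, Sesn2 and Gdf15 lie below them.

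Bax (chr7:45461697-45466898, minus strand) encodes a pore-forming member of the Bcl2 family that opens mitochondria during cell death. In Rag1-/- hosts it had 2601, 2698, 3051, 2432 and 2778 normalized counts in knockout tumours, against 3602, 3711, 3499, 3592 and 3353 in wild-type tumours. The ranges were apart and Bax fell to 0.764 of the wild-type mean, a log2 change of -0.39 ± 0.06 (limma adjusted p = 0.000398). Cultured knockout cells had 5394 and 4520, against 6086, 6307 and 7002 in wild-type cells. That was also -0.39 on the log2 scale and without overlap, with a limma adjusted p of 0.137. Day 4 knockout tumours had 2826, 4097, 3497, 3025 and 3850, against 3913, 3556, 4784 and 3439 in wild-type tumours, overlapping at a log2 change of -0.18 ± 0.14. Day 6 antibody tumours had 3870, 6151, 3872 and 5446, against 2919, 3963, 3816 and 3582 with IgG. Antibody tumours 2 and 4 were the high pair, and the log2 change of 0.42 ± 0.18 did not pass (limma adjusted p = 0.517). A predicted coding gene, Gm45808, overlaps Bax on the same strand, so reads there are uncertain.

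Bax lies in a stretch of chromosome 7 where most genes were lower in knockout. Within 5 Mb of it in Rag1-/- hosts, 53 of 101 tested genes fell and 1 rose, 90 had a log2 change below 0, and the median was -0.35, close to Bax's own -0.39. In culture 98 of 104 such neighbours lay below 0, with 4 called lower and a median of -0.45. At day 4 the count was 92 of 123 with a median of -0.19, and at day 6, with antibody, 40 of 126 with a median of 0.14. The nearest tested neighbours behaved alike in part. Ftl1, the ferritin light chain gene just beside Bax, fell by 0.40 in Rag1-/- knockout tumours (limma adjusted p = 0.00151), Nucb1 by 0.37 (0.000198) and Gys1, muscle glycogen synthase, by 0.40 (0.0217), while Dhdh, between Bax and Nucb1, had a log2 change of 0.03 (0.945). Dhdh was low there, averaging 30.2 normalized counts in knockout and 29.1 in wild-type tumours. In culture Gys1 passed at -0.75 (limma adjusted p = 0.0306), while Ftl1 at -0.16, Dhdh at -2.03 and Tulp2 at -1.76 did not. At day 4 none of Gys1, Nucb1, Ftl1 and Dhdh passed in limma, with Gys1 at -0.89, Nucb1 at -0.47, Ftl1 at 0.10 and Dhdh at 1.10. Over the 15 to 50 Mb stretch, chosen after seeing the values, 174 of 346 genes fell in Rag1-/- hosts and 6 rose (median -0.27). On the rest of the chromosome 60 of 546 fell and 43 rose (median -0.06). The fall of Bax was thus of the size usual for its neighbourhood, and whether it is more than that was not tested.

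**Figure D3:**
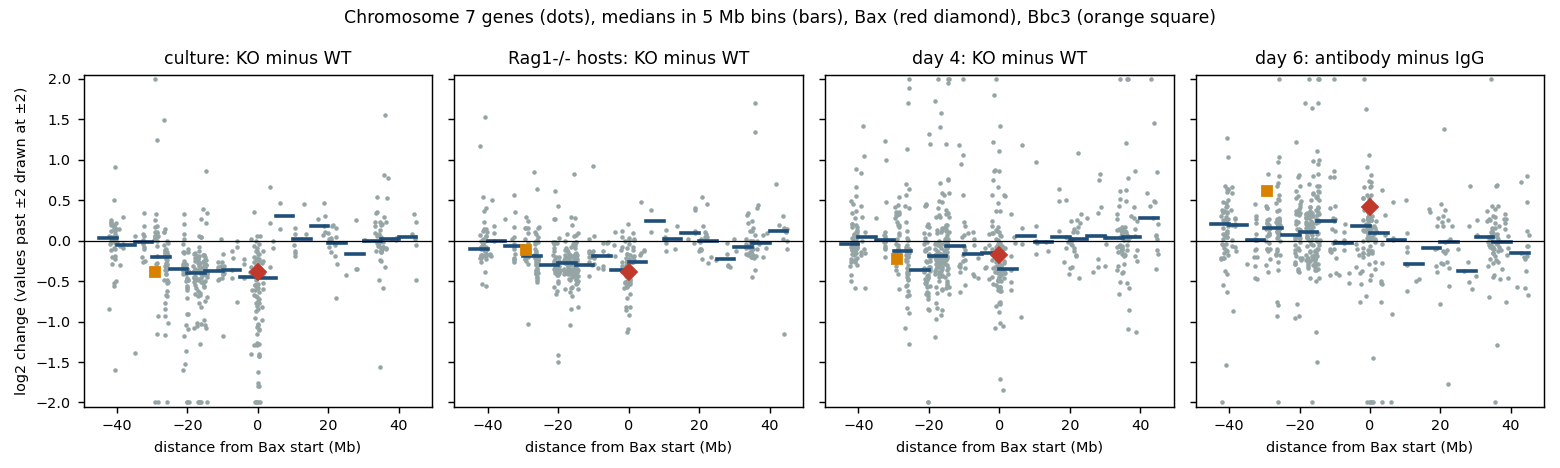
Log2 change of each tested gene on chromosome 7 within 45 Mb of Bax (grey dots) against its distance from the Bax start in Mb, with medians in 5 Mb bins (blue bars), Bax (red diamond) and Bbc3 (orange square). In culture and Rag1-/- hosts the bars between 30 Mb left of Bax and Bax itself lie at -0.19 or lower, and Bax lies near them, while bins to its far right hold few genes and lie near 0 or above in part.

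Bbc3 (chr7:16308393-16318205, plus strand) encodes Puma, a BH3-only protein that p53 induces to release Bax and its relatives. It had 701, 561, 728, 656 and 601 normalized counts in knockout tumours of Rag1-/- hosts, against 778, 720, 664, 772 and 600 in wild-type tumours. These overlapped at a log2 change of -0.12, with a 95% interval of -0.31 to 0.07. Cultured knockout cells had 682 and 746, against 804, 1014 and 996 in wild-type cells, apart at -0.39 ± 0.15 (limma adjusted p = 0.224). It lies at the edge of the same chromosome 7 stretch, where the median of 78 neighbours within 5 Mb was -0.15 in culture and that of 79 in Rag1-/- hosts was -0.18. At day 4 its knockout values of 353, 366, 398, 252 and 319 overlapped the wild-type values of 386, 341, 420 and 416. Day 6 antibody tumours had 1073, 1162, 990 and 976, against 552, 736, 742 and 737 with IgG. All 4 antibody tumours lay above all IgG tumours, 1.52-fold in means and 0.61 ± 0.14 on the log2 scale. Limma gave it an adjusted p of 0.517, and the authors' deposited table lists 0.0161.

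Phlda3 (chr1:135766119-135769136, plus strand) encodes a small protein that holds back Akt signalling and so favours cell death. Its Rag1-/- knockout tumours ran between 1614 and 1901 normalized counts and its wild-type tumours between 1493 and 1711, a log2 change of 0.13 ± 0.06 (limma adjusted p = 0.0944). In culture, knockout libraries had 1450 and 1140, within reach of the wild-type 1334, 1032 and 1253. At day 4 the knockout range of 1896 to 3025 and the wild-type range of 2155 to 3321 were nearly the same. With antibody at day 6 it ran between 2043 and 3855, with IgG between 1838 and 2072. Antibody tumour 2 alone held the high value, and no comparison of Phlda3 passed the test.

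Sesn2 (chr4:132492032-132510501, minus strand) encodes sestrin 2, which restrains the growth kinase mTORC1 and is raised by p53 and, under amino acid shortage, by ATF4. It had 963, 773, 738, 860 and 901 normalized counts in knockout tumours of Rag1-/- hosts, against 1035, 1010, 1173, 936 and 896 in wild-type tumours. It fell by 0.25 ± 0.09 on the log2 scale (limma adjusted p = 0.0455), with overlapping ranges. The call was lost without knockout tumours 2, 3 or 4 or wild-type tumours 1, 2 or 3 (limma adjusted p between 0.0768 and 0.111), and the authors' deposited table gives 0.106. At day 4 knockout tumours had 906, 431, 570, 857 and 666, against 1017, 1101, 1263 and 1397 in wild-type tumours. The groups were apart, at 0.574 of the wild-type mean and -0.84 ± 0.22 on the log2 scale. Limma gave an adjusted p of 0.163 there and the authors' deposited table lists 0.0207. In culture the libraries within a genotype disagreed. Knockout derivative 3-6 had 1844 and 3-7 had 767, against 1373, 662 and 772 in wild-type cells. At day 6 antibody tumours split too, with 1080, 565, 1263 and 687, against 817, 883, 1064 and 1009 with IgG. A noncoding gene, Gm12981, overlaps Sesn2 on the same strand, so reads there are uncertain. Of 127 tested genes within 5 Mb of Sesn2, 22 fell and 1 rose in Rag1-/- hosts (median -0.06), against 11.4% and 11.3% of all genes. At day 4, 63 of 151 such neighbours lay below 0 (median 0.05). Whether the fall of Sesn2 is more than that of its neighbourhood was not tested.

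Gdf15 (chr8:70629393-70632456, minus strand) encodes a secreted stress cytokine that p53 and ATF4 both raise. Knockout tumours of Rag1-/- hosts had 502, 463, 436, 440 and 466 normalized counts, against 569, 554, 597, 480 and 493 in wild-type tumours. It fell by 0.22 ± 0.07 on the log2 scale (limma adjusted p = 0.0474), with only knockout tumour 1 inside the wild-type range. The call was lost without knockout tumours 2, 3, 4 or 5 or wild-type tumours 1, 2 or 3 (limma adjusted p between 0.0713 and 0.116), and the authors' deposited table gives 0.127. At day 4 knockout tumours had 336, 343, 269, 383 and 391, against 520, 474, 776 and 829 in wild-type tumours. That was 0.530 of the wild-type mean and -0.88 ± 0.20 on the log2 scale, without overlap. Limma gave an adjusted p of 0.141 at day 4, while the authors' deposited table lists 0.00238. At day 6 the direction was the opposite, 722, 1208, 903 and 1102 with antibody, against 266, 538, 684 and 519 with IgG. All antibody tumours were above all IgG tumours, 1.96-fold in means, at 1.02 ± 0.29 on the log2 scale (limma adjusted p = 0.517, and 0.0748 in the authors' deposited table). Culture showed the split of Sesn2 again, with 918 in 3-6 and 559 in 3-7, against 899, 335 and 450 in wild-type cells. Of 105 tested genes within 5 Mb of Gdf15, 19 fell and 5 rose in Rag1-/- hosts (median -0.06), against 11.4% and 11.3% of all genes. The median of such neighbours was -0.09 at day 4 and 0.11 at day 6. Whether the changes of Gdf15 are more than those of its neighbourhood was not tested.

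The parental library held the highest wild-type value of Sesn2, Gdf15, Cdkn1a, Mdm2, Trp53, Phlda3 and Zmat3, and the lowest of Ccng1, Bax and Bbc3. Without it the culture fit called 1655 genes in place of 39, and among them Trp53, Cdkn1a, Mdm2 and Zmat3 higher and Bax and Bbc3 lower in knockout (limma adjusted p between 0.00600 and 0.0459). With 2 knockout and 2 wild-type libraries left, these calls rest on the agreement of pairs of libraries.

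Markers of other cell types varied widely between tumours at day 4 and day 6. Only the keratinocyte and red blood cell markers of day 4 had group ranges that did not overlap. In bulk tumours fewer cells of a type and less RNA per cell cannot be told apart. At day 4 the 6 keratinocyte markers summed to between 12.4 and 595 RPM in knockout tumours and between 0.688 and 1.32 RPM in wild-type tumours, where Lor and Dsg3 were at 0. The 6 adipocyte markers summed to between 128 and 5295 RPM in knockout and between 34.9 and 418 RPM in wild-type tumours. They were highest in knockout tumours 2 and 4, and none of either list was called, against 0.0354% of all genes. Fibroblast markers were at 4156 to 16629 RPM in knockout (median 12169) and 3420 to 12767 RPM in wild-type tumours (median 4671). They were highest in knockout tumours 1, 2 and 4 and wild-type tumour 1. Macrophage markers were at 1029 to 2681 RPM in knockout and 934 to 2568 RPM in wild-type tumours. Endothelial markers were at 240 to 954 RPM in knockout and 71.7 to 310 RPM in wild-type tumours. Red blood cell markers, with 4 of 5 at 0, were at 11.9 to 78.2 and 2.02 to 5.85 RPM in the same order. Skeletal muscle markers, 7 genes, summed to between 6.84 and 2696 RPM in knockout and between 10.6 and 1308 RPM in wild-type tumours. Without knockout tumours 2 and 4 the day 4 log2 changes were -0.94 for Gdf15, -0.76 for Sesn2, -0.40 for Mdm2 and -0.33 for Cdkn1a, and the host differences of Cdkn1a, Mdm2 and Zmat3 no longer passed (adjusted p = 0.178, 0.108 and 0.220 from the limma estimates). Without the pair highest in muscle markers, knockout tumour 5 and wild-type tumour 3, the differences of Mdm2 and Zmat3 also missed it (0.0526 and 0.0574) while that of Cdkn1a held (0.0223).

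At day 6 adipocyte markers summed to between 42.8 and 738 RPM with antibody and between 24.2 and 62.9 RPM with IgG, highest in antibody tumours 2 and 4. These are the tumours highest in Bax and Gdf15 and lowest in Sesn2. Without them the day 6 log2 changes were 0.13 for Bax, 0.76 for Gdf15, 0.59 for Bbc3 and 0.32 for Sesn2. Keratinocyte markers summed to 0.931, 9.31, 181 and 9.22 RPM in antibody tumours 1 to 4, against 0.343 to 1.01 RPM with IgG. The 6 epithelial markers summed to 259, 466, 186 and 543 RPM with antibody, against 185 to 207 RPM with IgG, so they too were highest in antibody tumours 2 and 4. No marker of these lists was called at day 6, where limma called 0 of 14155 genes. Muscle markers summed to between 5.64 and 238 RPM with antibody and between 141 and 6032 RPM with IgG. The part of these cell types in the day 4 and day 6 results was otherwise not tested. In Rag1-/- hosts the same lists also overlapped between genotypes. Adipocyte markers were at 8.43 to 113 RPM in knockout and 5.95 to 67.8 RPM in wild-type tumours. Muscle markers were at 3.39 to 27.8 RPM in knockout and 3.11 to 31.0 RPM in wild-type tumours. Macrophage markers overlapped as well, at 534 to 836 RPM in knockout and 540 to 722 RPM in wild-type tumours. Among tested markers in Rag1-/- hosts, 1 of 4 epithelial, 1 of 6 macrophage, 1 of 7 fibroblast and 1 of 2 red blood cell genes were called higher in knockout. There 1 fibroblast gene was called lower, and 22.7% of all genes were called in either direction. In culture the 7 fibroblast matrix markers ran at 442 to 919 RPM in knockout and 176 to 238 RPM in wild-type cells. Lum was at 0 in both, and none was called, against 0.327% of all genes. The 6 epithelial markers summed to 164 RPM or more in every library. Only 2 of the 6 passed the filter on low values in culture and 4 in Rag1-/- hosts, so a few genes carried the sum there. All 6 passed at day 4 and day 6, with median log2 changes of 3.54 and 3.28 and none called.

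Other genes of the pathway were read from lists of p53 regulators and targets. In knockout tumours of Rag1-/- hosts, 1 of 11 tested members of the p53 family and its regulators rose, namely Chek2, a kinase that acts on p53 after DNA breaks, by 0.27 ± 0.07 (limma adjusted p = 0.0134), and none fell. Of 12 targets in arrest and repair 2 rose and 4 fell. Polk (0.34), a DNA polymerase that copies past lesions, and Btg2 (0.33), an anti-proliferative factor, were the rises, while Gadd45a, a stress-induced growth arrest gene, fell by 0.43, Plk2 by 0.37, Sesn1 by 0.25 and Gtse1, a p53 antagonist, by 0.18. Of 11 targets in cell death 2 rose, Pmaip1, which encodes the BH3-only protein Noxa, by 0.55 ± 0.12 and Apaf1, the scaffold of the apoptosome, by 0.34 ± 0.06, and Siva1 fell by 0.25. Of 8 other targets none rose and 3 fell, Ephx1, Ak1 and Sertad1 (-0.51, -0.35 and -0.25). The list medians lay between -0.07 and 0.04, with the median over all genes close to 0, so in these lists too rises and falls were mixed.

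In all, 27 of 90 tested genes of the 8 lists were called in Rag1-/- hosts (30%), against 22.7% of all genes. Of the 90, 7 rose and 20 fell, against 11.3% of all genes called higher and 11.4% called lower, so the excess lay in falls. The lists were not split by chromosome, so any list gene in the lower stretch of chromosome 7 is counted among these. Genes of neighbouring processes were read in the same tumours. Of 12 tested Bcl2 family genes, Bcl2, a death inhibitor, rose (0.36) and Bid, a death promoter, fell (-0.21). Of 4 other Cdk inhibitors Cdkn2c fell (-0.31). The ATF4 stress response, which shares Sesn2 and Gdf15 as targets with p53, had 6 of 12 members called lower and none higher, all 12 below 0, with a median of -0.31. Nupr1, a stress-induced chromatin factor, fell by 0.54 ± 0.08 (limma adjusted p = 0.000389), and Phgdh, of serine synthesis, Ddit3, the stress factor CHOP, and Trib3 also fell (-0.42, -0.34 and -0.30). Of 20 cell cycle genes 4 fell, Cdc20, Plk1, Aurka and Ccnb2 (-0.42, -0.30, -0.22 and -0.18), and Ccne2 rose (0.27). The called shares of the cell cycle, Bcl2 family and Cdk inhibitor lists, 5 of 20, 2 of 12 and 1 of 4, were near or below the 22.7% of all genes.

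In culture, at day 4 and at day 6 limma called no gene of these 8 lists, against 0.327%, 0.0354% and 0% of all genes. ATF4 genes had a day 4 median of -0.50, with 2 of 12 above 0, and a day 6 median of 0.23, with 10 of 12 above 0. Gdf15 had the same direction in both, while Sesn2 had it at day 4 (-0.84) but not at day 6 (-0.14). In culture the ATF4 median was -0.11, with 5 of 11 above 0, while Sesn2 stood at 0.42 and Gdf15 at 0.48. Whether ATF4 had a part in these values was not tested. Cell cycle genes had a day 4 median of 0.28 with 17 of 20 above 0. Perp and Trp63, genes of stratified epithelia as well as of the p53 family pathway, averaged 249 ± 417 and 62.7 ± 52.0 normalized counts in day 4 knockout tumours, against 0.791 ± 0.965 and 7.59 ± 9.02 in wild-type tumours (SD, n = 5 and 4), beside the keratinocyte markers above. Tested between hosts, 3 of 87 list genes passed (3.45%), a share near the 2.99% over all genes. Pmaip1 had a day 4 minus Rag1-/- difference of -1.26 ± 0.22 (adjusted p = 0.00445 from the limma estimates). It averaged 567 ± 109 in knockout and 928 ± 205 in wild-type tumours at day 4. Ppp1r15a, of the ATF4 response, also had a negative difference (-0.79, adjusted p = 0.0284) and Fas, a death receptor, a positive one (0.94 ± 0.24, adjusted p = 0.0475), both from the limma estimates.

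**Figure D4:**
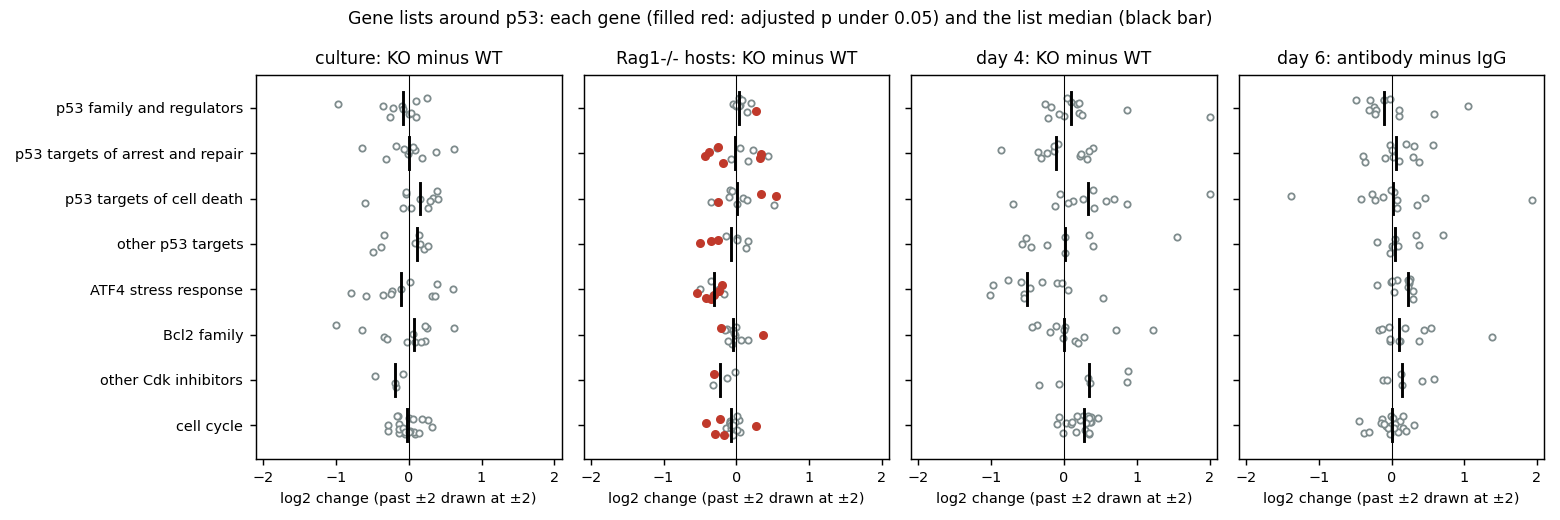
Log2 change (horizontal axis, values past 2 drawn at the edge) of each tested gene of 8 lists around p53 (rows), with the list median (black bar), in the 4 comparisons (panels). Filled red points, adjusted p under 0.05, appear only in the Rag1-/- panel, on both sides of 0, and the 12 ATF4 genes there all lie below 0.

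Set side by side across tables, where no test of levels was made, the members had their highest levels in different settings. Any difference in batch cannot be told apart from that between tables. Trp53 was highest at day 6, at 249 ± 23.8 RPM (SD, as for all levels here) with antibody and 224 ± 3.96 RPM with IgG, apart from all other groups. It then ran through 177 in cultured knockout cells, 162 and 150 in day 4 knockout and wild-type tumours, and 148 and 135 in those of Rag1-/- hosts, each overlapping the next, with cultured wild-type cells apart and lowest at 105 ± 15.1. Cdkn1a formed a high set of 4 overlapping groups, at 347 RPM in knockout and 435 ± 53.3 RPM in wild-type tumours of day 4, and at 401 RPM in knockout and 352 RPM in wild-type cells of the cultures. A gap separated these from day 6, at 179 RPM with antibody and 182 RPM with IgG, which overlapped the 162 RPM of Rag1-/- knockout tumours. Rag1-/- wild-type tumours were apart again and lowest, at 120 ± 6.48 RPM. Mdm2 moved little, between 134 ± 7.46 RPM with IgG and 90.2 ± 20.9 RPM in cultured wild-type cells, and each group overlapped its neighbour in that order.

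Zmat3 was highest in culture, at 95.5 ± 2.85 RPM in knockout and 73.1 ± 5.09 RPM in wild-type cells, each apart from the next group, and 59.8 or less in tumours. Phlda3 had the opposite order, 37.4 ± 6.90 RPM in cultured knockout and 35.4 ± 4.58 RPM in cultured wild-type cells, apart from the tumours at 66.2 to 106 RPM. Bbc3 was lowest at day 4, at 14.9 ± 2.59 RPM in knockout and 16.5 ± 1.59 RPM in wild-type tumours, and highest at day 6 with antibody at 35.3 ± 2.33 RPM. Ccng1 was highest at day 6, at 97.2 RPM with antibody and 126 RPM with IgG, though the antibody range met that of Rag1-/- knockout tumours. Bax ran between 190 ± 15.7 RPM in cultured wild-type cells, apart from the next group, and 120 ± 15.5 RPM with IgG. Sesn2 lay between 50.4 and 27.4 RPM and Gdf15 between 33.1 and 15.1 RPM, with every group overlapping the next in order. Scaled to exonic length (RPKM, RPM divided by kilobases of exon), Cdkn1a and Bax were the most abundant members in cultured wild-type cells, at 99.1 ± 16.7 and 121 ± 9.98 RPKM, and Zmat3 the least, at 6.39 ± 0.445 RPKM.

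Library by library, with group means removed, some members moved together over the 32 libraries. The highest Pearson r between members were 0.73 for Bax and Phlda3, 0.68 for Trp53 and Phlda3, 0.67 for Cdkn1a and Gdf15, 0.66 for Mdm2 and Sesn2 and 0.61 for Cdkn1a and Mdm2. Mdm2 and Bax had the lowest, -0.47. Among 9024 genes with a mean of 50 or more in all 4 tables, Itpk1 (0.93), Zfp653 (0.82) and Tnfrsf9 (0.80) were most like Cdkn1a. Cyp26b1 (0.91), Adamts14 (0.90) and Camk2g (0.86) were most like Mdm2, and Coq4, Pcgf2 (0.86 each) and Thop1 (0.85) most like Trp53. These r describe points that share library, depth and tumour composition.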

How the data were processed

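RNA was extracted in Trizol and about 500 ng made into TruSeq stranded mRNA libraries, per the labels' protocols. The submitters' processing notes name the build mm10 and the tools TopHat, CASAVA and DESeq2 without versions. How reads were counted, on which annotation and strand, is not given in the sources used here. The deposited values are a signal, read counts divided by 1 size factor per library, and the tables add adjusted p-values by the authors. Dividing by each library's smallest step gave whole reads for 100% of values (tolerance 0.01), and depth and RPM (reads scaled to a common library total) were computed from these. RPKM used exonic lengths of GENCODE M21 (GRCm38).

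Per table, limma 3.58.1 with trend (R 4.3.3) compared the 2 groups on log2(normalized count + 1), two-sided, keeping genes that averaged at least 10, and adjusted p over all of these by Benjamini-Hochberg. The difference of the knockout effect between tables was tested from both estimates with Welch-Satterthwaite degrees of freedom and adjusted the same way. The code was checked on simulated data. Replicate libraries all differed by more than sampling noise (lowest chi-square per degree of freedom 7.85). Columns of no listed sample, 18 in all, were not used. The authors' deposited adjusted p-values were copied for side by side reading. Members and lists were chosen with earlier results of these data known. Named list genes are those called, at most 4 a list and comparison by adjusted p, with others called given after their values were seen. Perp and Trp63 at day 4 are exceptions, named though not called. The 3 genes most like Trp53, Cdkn1a and Mdm2 were named by Pearson r over 32 libraries with group means removed. edgeR 4.0.16 and DESeq2 1.42.0 on the recovered reads, other scalings, filters, pseudocounts and left-out libraries were alternatives. Python 3.11.15 and matplotlib 3.10.9 drew the figures.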

Additional observations from a re-analysis of the deposited data

Results flagged for a closer look

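In 5 of 60 groups of 4 or 5 libraries 1 library stood apart from the others by Dixon's test, and chance alone gives about 5% of groups. Bbc3 had 552 normalized counts in day 6 IgG tumour 1, below the other 3. Ccng1 had 1710 in wild-type tumour 5 of Rag1-/- hosts and 3454 in day 6 antibody tumour 3, both above the rest of their group. Phlda3 had 3855 in day 6 antibody tumour 2 and 3321 in day 4 wild-type tumour 3, both above the rest.

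For 3 genes the knockout effect differed between day 4 tumours and tumours of Rag1-/- hosts by a test of the difference itself. The day 4 minus Rag1-/- difference was -0.80 for Cdkn1a, -0.70 for Mdm2 and -0.52 for Zmat3 on the log2 scale (adjusted p = 0.0448, 0.0310 and 0.0432 from the limma estimates).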

How the results depend on the processing

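In Rag1-/- hosts Cdkn1a, Mdm2, Bax and Zmat3 kept their direction and their call in every alternative run. Over all genes 2904 were called there (edgeR 2900, DESeq2 3169, 1984 to 3093 with 1 library left out). Sesn2 and Gdf15 lost their calls with no filter on low values (adjusted p = 0.0576 and 0.0599) and without the limma trend (0.0814 and 0.0545), and Gdf15 after upper-quartile rescaling (0.0557). In culture 39 genes became 12 without the trend, 25 with edgeR, 1055 with DESeq2 and between 2 and 1655 with 1 library left out. DESeq2 called Trp53, Bax and Zmat3 there (adjusted p = 4.33e-05, 0.0371 and 0.0130). At day 4, 5 genes became 9 with no filter, 3 without the libraries highest in adipocyte markers, 15 without those highest in muscle markers and between 3 and 50 with 1 left out. At day 6, 0 genes became 0 to 5. The Rag1-/- minus culture difference had 84 genes, and 52 with no filter, 36 with quantile normalization and 10 to 954 with 1 library left out. Without the parental library it called Trp53 and Gdf15 (adjusted p = 0.00262 and 0.0458). The day 4 minus Rag1-/- difference had 336, and 145 and 215 in the marker settings and 154 to 472 with 1 left out. Without the trend Cdkn1a, Mdm2 and Zmat3 lost their difference (adjusted p = 0.0793, 0.0617 and 0.0720). The marker settings were chosen after seeing the data. The cause of these shifts was not tested.

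Directions turned only for log2 values that were not called. Phlda3 at day 4 was 0.026 after quantile normalization and 0.041 without the muscle-high libraries. Cdkn1a at day 6 was 0.017 after upper-quartile rescaling and 0.0069 after quantile normalization. Without antibody tumours 2 and 4, Sesn2 was 0.32 and Zmat3 0.012. The Rag1-/- minus culture difference of Bax was 0.029 and 0.067 under the same rescalings, and the day 4 minus Rag1-/- difference of Ccng1 was 0.0078 without the adipocyte-high libraries. With 1 library left out, culture ran from -0.21 to 1.05 for Sesn2 and -0.073 to 0.27 for Phlda3. Day 4 ran from -0.053 to 0.13 for Trp53 and -0.14 to 0.090 for Phlda3, and day 6 from -0.12 to 0.064 for Cdkn1a and -0.33 to 0.061 for Sesn2. The Rag1-/- minus culture difference ran from -0.13 to 0.12 for Bax, -0.14 to 0.21 for Phlda3 and -0.11 to 0.0086 for Zmat3. The day 4 minus Rag1-/- difference ran from -0.14 to 0.041 for Trp53 and -0.12 to 0.035 for Ccng1.

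Replicate numbers are shared between groups, but same-numbered libraries correlated weakly in most pairs, with r of -0.20 to 0.15 among the Rag1-/- tumours, -0.17 to 0.14 for day 4 and -0.20 to 0.45 for day 6. With the number as a block limma called 2411 genes in Rag1-/- hosts, 2 at day 4 and 0 at day 6. Sesn2 and Gdf15 then missed the threshold in Rag1-/- hosts (adjusted p = 0.0831 and 0.0672), and Trp53 at day 4 was -0.017. No paired analysis was possible in culture because its columns carry no shared number. Count tools were not run at day 4 and day 6, where 3 libraries have a size factor close to 1. Whole reads were recovered for these tumours as well, so count models were possible there but were not tried. With 2 to 5 libraries a group, counts of calls rest on few libraries.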
